A study of Mus musculus with 8 samples.

Results

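The core spliceosome, the set of proteins that recognises introns and removes them from messenger RNA precursors, was described in mouse myeloid progenitors. It was defined as a list of 51 genes, read through probe sets that the array's annotation pairs with a single gene symbol, and a gene was represented by its brightest such probe set, by the mean over the 8 arrays. Of the 51 genes, 46 had such a probe set, out of 18193 genes in all. All 46 passed the filter, a signal of 50 on 2 or more arrays, and were tested among 8886 genes. Snrpa, Snrpd1, Snrpd2 and Lsm5 had probe sets only with several gene symbols and Zrsr2 had none paired with it, so these 5 genes have no value here.

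The spliceosome assembles anew on each intron from small nuclear ribonucleoproteins (snRNPs), each a small nuclear RNA with its proteins. U1 reads the 5′ splice site, U2AF and SF1 read the 3′ splice site and the branch point, and U2 with its SF3A and SF3B subcomplexes then holds the branch site, before the U4/U6.U5 tri-snRNP joins and helicases rearrange the RNAs into an active site. Several of these genes, SF3B1, U2AF1, ZRSR2, LUC7L2, PRPF8, SF1, SF3A1 and U2AF2 among them, are recurrently mutated in human myelodysplastic syndromes and related myeloid neoplasms.

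The arrays held 4 groups of 2, sorted from the bone marrow of male mice of a strain background given as mainly C576BL/6. CMP are common myeloid progenitors and GMP are granulocyte-monocyte progenitors, which arise from them. G0 TERTER/+ mice, the normal group, carry 1 copy of a telomerase reverse transcriptase gene fused to the estrogen receptor, and G4/G5 TERTER/ER mice, with short telomeres, carry only such copies after several generations of breeding, so the controls also carry the allele. Each array read a pool of cells from 4 mice, matched for age and sex across the genotypes, with 5000 to 20000 cells a sample. The sample titles say G4 and the genotype labels G4/G5, so the generation of each pool is uncertain, and the age of the mice is not given. The 2 pools of a group are its replicates. The p-values set a difference against the spread between such pools, estimated over the 4 groups together.

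Signals are MAS5 values scaled to a target of 100, and changes are differences of log2(signal + 10), which understate the change of dim genes. Arrays shared this target, but 31.6% to 32.7% of probe sets reached 50 on GMP arrays, against 34.2% to 35.2% on CMP arrays. The median signal was 14.3 to 15.7 on GMP arrays and 17.4 to 18.5 on CMP arrays. The sort was checked against marker lists: all 11 tested markers of granulocyte and monocyte progenitors lay above 0 in G0 GMP against G0 CMP, and all 11 of megakaryocyte and erythroid progenitors lay below 0. Macrophage and dendritic markers were under 50 on every array for 7 of 10 genes, B lymphoid markers for 5 of 6, T and NK lymphoid markers for 6 of 6 and stromal and endothelial markers for 4 of 7. Of the 8 markers of eosinophils, basophils and mast cells, 0 were under 50 on every array. Their summed signal was 2130 and 2005 in the G0 CMP pools and 7810 and 2579 in the G4/G5 CMP pools. It was 4513 and 5855 in the G0 GMP pools and 4297 and 4578 in the G4/G5 GMP pools. G4/G5 CMP pool 1 stood apart from the other CMP arrays. The summed signal of 14 genes of maturing neutrophils was 63743 there, against 360 in G4/G5 CMP pool 2 and 390 and 439 in G0 CMP. Among GMP the same sum was 1591 and 3557 for G0 pools, against 33454 and 36658 for G4/G5 pools. Values without G4/G5 CMP pool 1 are given beside the main counts that use it and beside several genes. In pooled cells, fewer cells of a type and less RNA per cell cannot be told apart.

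Core spliceosome transcripts spanned a narrower range across the 8 arrays than the genes tested as a whole. The ranges are ratios of signals without the value added before taking log2, and the genes compared were not matched for signal. Whether the narrower range would hold against genes of like signal was not tested. The ratio of a gene's highest to its lowest signal had a median of 1.59 over the 46 genes, against 1.81 over all genes tested. It stayed under 1.5 for 18 genes (39.1%, against 21.8% of all genes) and passed 2 for 7 genes (15.2%, against 38.4%), namely Prpf3, Lsm7, Phf5a, Sf3a1, U2af1, Prpf31 and U2af2. Luc7l2, a U1-associated factor of 5′ splice site choice, was the flattest, at 910.3 and 954 in the CMP pools of G0 mice, 871 and 965 in those of G4/G5 mice, 926 and 898 in the GMP pools of G0 mice and 906 and 939 in those of G4/G5 mice. U2af2, the subunit of U2AF that binds the polypyrimidine tract, was the least even, with a ratio of 3.40 between its extremes.

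Within that narrow range the arrays differed in order. Relative to each gene's own mean, the median of the 46 genes was 0.24 and 0.13 on the log2 scale in the G0 GMP pools and 0.08 and 0.01 in the G4/G5 GMP pools. It was -0.05 and -0.10 in the G0 CMP pools and -0.19 and -0.01 in the G4/G5 CMP pools, while the median of all genes tested stayed between -0.03 and 0.06. G0 GMP pool 1 was the highest array for 22 of the 46 genes, and G4/G5 CMP pool 1 the lowest for 18. The pools of a group were not alike in this: pool 1 read higher than pool 2 for 36 of the 46 genes in G0 GMP and for 36 in G4/G5 GMP, and lower for 32 in G4/G5 CMP.

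**Figure D1:**
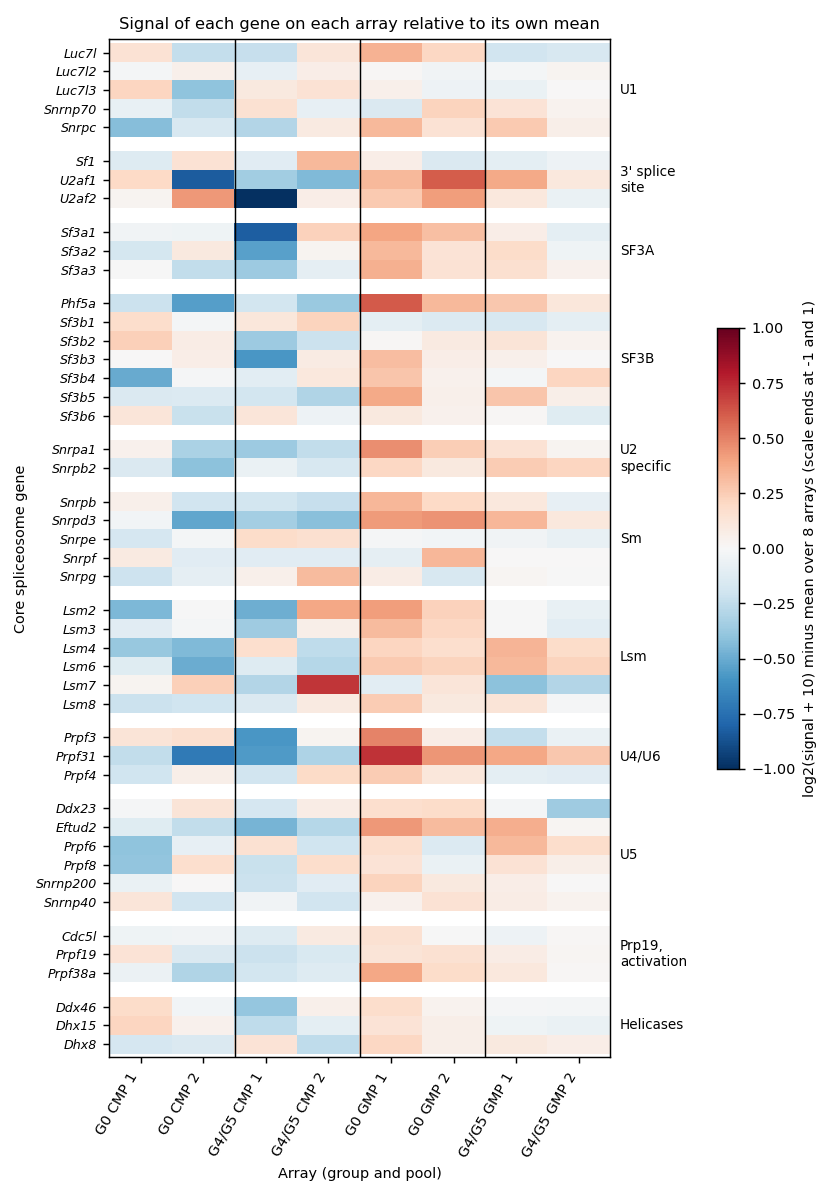
Heat map of the 46 core spliceosome genes, in rows grouped by complex, on the 8 arrays, in columns; colour gives log2(signal + 10) minus the gene's own mean over the 8 arrays, from -1 (blue) to 1 (red). The G0 GMP columns are mostly red, with 22 genes highest on pool 1, and the G4/G5 CMP pool 1 column is mostly blue, with 18 genes lowest there.

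On the chosen probe sets, GMP carried more signal of most core spliceosome genes than CMP in normal mice. In G0, 40 of the 46 genes lay above 0 in GMP against CMP and 6 below, with a median log2 difference of 0.26, against -0.02 over all genes tested. Among the 40 is Ddx23, which passed the signal filter only through its G0 GMP arrays. With a filter of 100, which leaves it out, 38 of 44 genes lay above 0. With quantile normalization 33 of the 46 lay above 0 (median 0.14) and with median centring 42 did (median 0.29). With the mean of a gene's probe sets 31 did (median 0.12), and the probe sets that were not chosen are described below. Of the 46, 7 genes passed as higher in GMP (15.2%, against 10.6% of all genes tested) and 0 as lower (against 10.2%). They were Prpf31, Phf5a, Snrpd3, Lsm4, Lsm6, Eftud2 and Snrpb2, which lie in the U4/U6 snRNP, SF3B, the Sm ring, the Lsm ring, the U5 snRNP and the U2 snRNP. In G4/G5, 35 lay above 0 and 11 below (median 0.16, against -0.04 over all genes tested), and Prpf31 and Eftud2 passed as higher, 2 of 46 against 4.18% of all genes, with 0 lower against 6.29%. Without G4/G5 CMP pool 1, 24 lay above 0 (median 0.04, against -0.08 over all genes). The 2 comparisons use different arrays, and the test of their difference passed for 0 of the 46 genes.

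Pools were also compared by overlap. In G0, both GMP pools were above both CMP pools for 26 of the 46 genes (56.5%, against 32.2% of all genes tested) and below them for 1, Sf3b1 (2.17%, against 33.1%). In G4/G5 the counts were 20 above (43.5%, against 27.7%) and 5 below (10.9%, against 33%), the latter Sf3b1, Snrpe, Snrpg, Lsm7 and Luc7l3. Most of the genes tested separated these pools in one direction or the other by this measure.

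Members that were higher in GMP together were looked at for letters shared by their promoters. Promoter windows from 250 bases before to 50 bases after the transcription start were held for 40 of the 51 genes, and for 4 of those 7 (RefSeq, mouse build GRCm38.p6). The letters CCAAT, on either strand, occurred in 3 of the 4, those of Prpf31, Snrpd3 and Lsm6, and in 42.5% of the 40 core spliceosome genes, against 43.2% of the 7338 tested genes with a window and 41.1% of 27025 genes. The bases before the start of Prpf31, the gene with the largest difference, and of Snrpd3, the Sm gene that passed, are shown 5′ to 3′ on the plus strand, with CCAAT or its reverse complement ATTGG in capitals, at chr7:3629735-3629984 and chr10:75517792-75518041.
Prpf31: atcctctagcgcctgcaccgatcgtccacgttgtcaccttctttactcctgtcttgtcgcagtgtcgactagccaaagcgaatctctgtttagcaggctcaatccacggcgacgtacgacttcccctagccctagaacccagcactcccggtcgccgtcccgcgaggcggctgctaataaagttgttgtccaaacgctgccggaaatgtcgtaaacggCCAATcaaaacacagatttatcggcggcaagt
Snrpd3: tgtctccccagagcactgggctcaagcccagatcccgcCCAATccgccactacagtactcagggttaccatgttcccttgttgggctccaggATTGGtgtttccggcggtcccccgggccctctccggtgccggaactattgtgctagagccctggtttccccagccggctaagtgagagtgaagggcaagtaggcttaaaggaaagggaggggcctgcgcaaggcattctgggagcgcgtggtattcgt
Prpf31 has 1 match in these 250 bases and Snrpd3 has 2. Snrpb2, the gene of the 4 without CCAAT, has 0 in its 250 bases, which are not shown. CCGGAAGT, the core letters bound by ETS factors, was found on either strand in 7 of the 40 genes (17.5%, against 10.5% of tested genes and 4.31% of all), namely Dhx8, Lsm5, Prpf6, Sf3a1, Sf3a3, Sf3b2 and Snrpe. GCGCATGC, a part of the NRF1 site, was found in 10.0% (against 6.75% and 3.05%) and TATAAA in 5.0% (against 8.19% and 15.7%). None of these last 3 motifs was in the windows of the 4 genes higher in G0 GMP, and the median GC content was 59.0% in core spliceosome windows, 61.0% in those of tested genes and 52.8% in all.

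Prpf31 is a U4 snRNP protein needed for the tri-snRNP to form. Its signal was 415 and 339.7 in G0 GMP against 207 and 148 in CMP of that genotype, and 327 and 301 in G4/G5 GMP against 164 and 197 in G4/G5 CMP. All 4 GMP arrays were above all 4 CMP arrays, by a log2 difference of 1.06 ± 0.19 (SE) in G0 (adjusted p = 0.0103) and 0.77 ± 0.19 in G4/G5 (adjusted p = 0.0420). A dimmer probe set of Prpf31, between 42.7 and 83.8 on the 8 arrays, gave 0.15 in G0, and without G0 GMP pool 1 the brighter one no longer passed (adjusted p = 0.111).

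Phf5a is a small SF3B protein that forms the branch-site pocket together with Sf3b1. It read 1126 and 918 in G0 GMP against 631 and 498 in CMP of that genotype, with 886 and 792 in G4/G5 GMP against 645 and 565 in G4/G5 CMP. GMP lay above CMP on every array, by 0.85 ± 0.17 in G0 (adjusted p = 0.0126), and by 0.47 ± 0.17 in G4/G5, where it did not pass (adjusted p = 0.106). In G0 it no longer passed when G0 CMP pool 2 (adjusted p = 0.0508) or G0 GMP pool 1 (adjusted p = 0.126) was left out.

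Snrpd3 belongs to the Sm ring that encircles the U1, U2, U4 and U5 RNAs. Its signal was 1000.0 and 705 in the CMP pools of G0 mice, 803 and 757 in those of G4/G5 mice, 1367 and 1389.5 in the GMP pools of G0 mice and 1281 and 1097 in those of G4/G5 mice. The lowest GMP array was above the highest CMP array, and the difference was 0.71 ± 0.17 in G0 (adjusted p = 0.0244) and 0.60 ± 0.17 in G4/G5 (adjusted p = 0.0610, not passing). In G0 the difference was 0.46 without G0 CMP pool 2 (adjusted p = 0.0825) and 0.22 with the mean of the gene's probe sets (adjusted p = 0.312). Eftud2, the GTPase of the U5 snRNP, read 861 and 788 in the CMP pools of G0 mice, 675 and 765 in those of G4/G5 mice, 1266 and 1166 in the GMP pools of G0 mice and 1206 and 947 in those of G4/G5 mice. It separated GMP from CMP without overlap, by 0.56 ± 0.15 in G0 (adjusted p = 0.0344) and 0.57 ± 0.15 in G4/G5 (adjusted p = 0.0483), with 0.31 and 0.41 in G0 on its other bright probe sets.

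Lsm4 and Lsm6 are subunits of the ring that binds the 3′ end of U6 RNA. Lsm4 read 687 and 658 in the CMP pools of G0 mice, 1009 and 751 in those of G4/G5 mice, 1041 and 1011 in the GMP pools of G0 mice and 1136 and 1022 in those of G4/G5 mice. Its G0 GMP pools were above the G0 CMP pools by 0.60 ± 0.16 (adjusted p = 0.0296), while G4/G5 CMP pool 1 nearly reached the GMP level and the difference in G4/G5 was 0.30 ± 0.16 (adjusted p = 0.228). Lsm6 read 913 and 703 in the CMP pools of G0 mice, 905 and 811 in those of G4/G5 mice, 1193 and 1162 in the GMP pools of G0 mice and 1245 and 1163 in those of G4/G5 mice. Every GMP array was above every CMP array for this gene, by 0.55 ± 0.15 in G0 (adjusted p = 0.0341) and 0.48 ± 0.15 in G4/G5 (adjusted p = 0.0710, not passing).

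Snrpb2 is the U2-specific protein that binds a stem-loop of U2 RNA together with its partner Snrpa1. It read 974 and 809 in the CMP pools of G0 mice, 1029 and 965 in those of G4/G5 mice, 1241 and 1154 in the GMP pools of G0 mice and 1287 and 1251 in those of G4/G5 mice. The groups did not overlap between cell types, and the difference in G0, 0.43 ± 0.13, passed narrowly (adjusted p = 0.0493). Its partner Snrpa1 differed by 0.50 ± 0.15 and just missed (adjusted p = 0.0520), as did Prpf38a, a protein of spliceosome activation (0.46 ± 0.14, adjusted p = 0.0535), and Snrpc, a U1 protein at the 5′ splice site (0.53 ± 0.17, adjusted p = 0.0615).

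**Figure D2:**
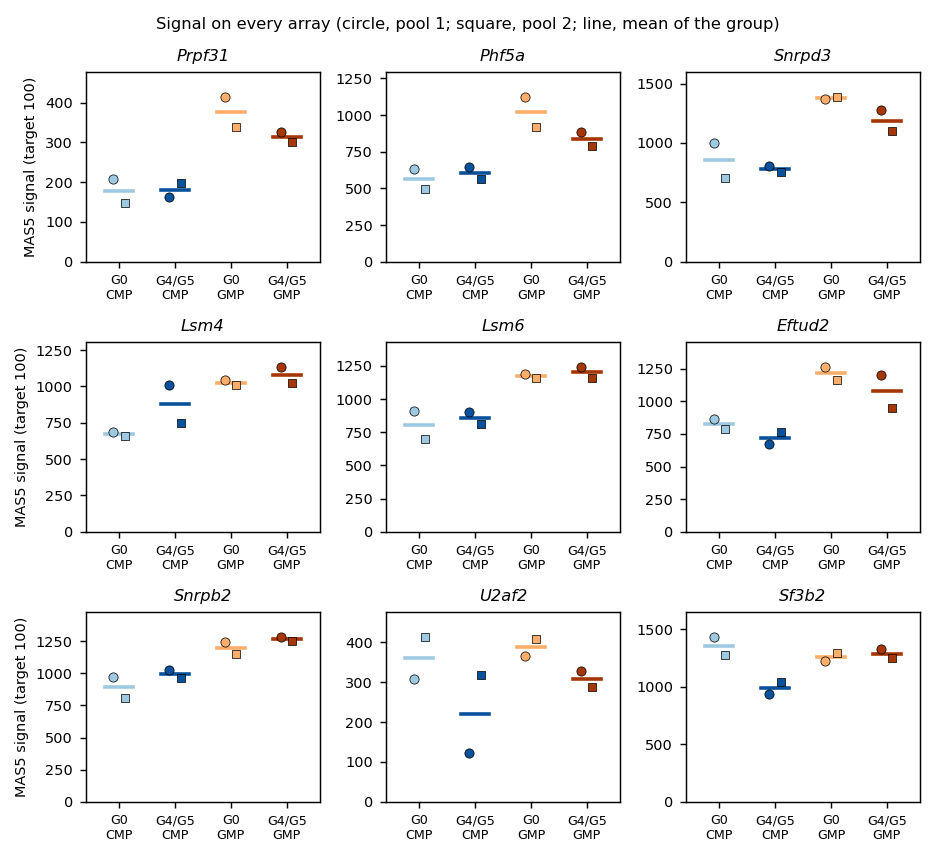
MAS5 signal (vertical axis, from 0, each gene on its own scale) of 9 core spliceosome genes in the 4 groups; circles are pool 1, squares pool 2 and lines group means. For Prpf31, Phf5a, Snrpd3, Lsm4, Lsm6, Eftud2 and Snrpb2 both G0 GMP points lie above both G0 CMP points, U2af2 is low on G4/G5 CMP pool 1 alone, and Sf3b2 is lowest on both G4/G5 CMP pools.

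Over 18 alternative fits, the G0 call was lost in 2 for Prpf31, 2 for Phf5a and 5 for Snrpd3. It was lost in 8 for Lsm4, 8 for Eftud2, 10 for Lsm6 and 13 for Snrpb2. In G4/G5 the call was lost in 10 for Prpf31 and 12 for Eftud2. The number of calls moved with the pool left out, for the 46 genes and for all genes tested. Left without G0 GMP pool 1, 0 of the 46 genes passed as higher in G0 GMP, against 0.293% of all genes tested. Without G0 GMP pool 2, 2 did (Phf5a and Prpf31, 4.35% against 2.10%), without G0 CMP pool 2 only Prpf31 did (2.17% against 6.18%), and without G0 CMP pool 1, 8 did (17.4% against 9.30%). Without G4/G5 CMP pool 1 or pool 2, which enter only through the shared spread, 11 passed in either case (23.9%, against 14.7% and 14.6%), and without G4/G5 GMP pool 1 or pool 2, 4 did (8.70%, against 6.00% and 6.05%). In G4/G5 the count of 2 became 1 without G4/G5 CMP pool 1 (2.17%, against 7.29%) and stayed 2 with other genes (Sf3a1 and U2af2) without G4/G5 CMP pool 2 (4.35%, against 2.90%). It became 0 when any 1 of the 4 GMP arrays was left out (against 0.101% to 1.54%), and 5 without G0 CMP pool 1 or pool 2 (10.9%, against 6.12% and 6.23%). Without G4/G5 CMP pool 1, Lsm7, another subunit of the U6 ring, lay at -1.06 in G4/G5 GMP against G4/G5 CMP. G4/G5 CMP is then the 1 array on which Lsm7 was highest, and the fit assumes that it varies like the other groups. With the pool number as a block shared by the cell types, 9 genes passed as higher in G0 (19.6%, against 12% of all genes) and 5 in G4/G5 (10.9%, against 5.81%), the latter Prpf31, Eftud2, Phf5a, Snrpd3 and Lsm6.

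Other probe sets gave a mixed picture of the difference between cell types. The 46 genes had 100 probe sets past the signal filter, and each was also tested on its own among 14743 such probe sets, a test added after the data were seen. In G0, 11 of the 100 passed as higher in GMP, against 8.98% of all, and 2 as lower, against 10.3%. In G4/G5, 2 passed as higher, against 3.7%, and 0 as lower, against 5.45%. Beyond the chosen ones, the probe sets higher in G0 GMP were of Lsm6 (0.57), Sf3b5 (0.64), Snrnp40 (0.52), Snrpa1 (1.00) and Snrpb (0.65), and those lower were of Luc7l2 (-0.83) and Sf3b1 (-0.55). Over the 54 probe sets that were not chosen, 29 lay above 0 in G0 (median 0.05) and 33 in G4/G5 (median 0.19).

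Sf3b1, the largest SF3B protein, which clamps the branch site, read lower in GMP than in CMP. Its chosen probe set read 1671 and 1456 in the CMP pools of G0 mice, 1601 and 1731 in those of G4/G5 mice, 1383 and 1341 in the GMP pools of G0 mice and 1324 and 1383 in those of G4/G5 mice. All 4 CMP arrays were above all 4 GMP arrays, by -0.19 ± 0.12 in G0 (adjusted p = 0.269) and -0.30 ± 0.12 in G4/G5 (adjusted p = 0.141), GMP minus CMP, and neither passed. Its 3 other probe sets also lay lower in GMP, by -0.55, -0.42 and -0.58 in G0 and by -0.28, -0.14 and -0.56 in G4/G5. Only the first of these passed, in G0 (adjusted p = 0.0271 over all probe sets), and with quantile normalization the chosen probe set passed there as well (-0.40, adjusted p = 0.0481).

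Most genes of most complexes lay above 0 in this comparison. In G0, all 3 SF3A genes lay above 0 (median 0.37), as did both U2-specific genes (0.46), all 5 Sm genes (0.13), all 6 U5 genes (0.17), all 3 U4/U6 genes (0.25) and all 3 genes of activation and the Prp19 complex (0.14). Of the U5 genes, Ddx23 passed the signal filter only through its G0 GMP arrays. The Lsm ring had 5 of 6 above 0 (median 0.47), U1 4 of 5 (0.20), SF3B 5 of 7 (0.15), 3′ splice site recognition 2 of 3 (0.11) and the helicases 2 of 3 (0.03). In G4/G5 the medians were 0.33 for SF3A, 0.28 for SF3B, 0.37 for the U2-specific genes, 0.12 for Sm, 0.09 for Lsm, 0.19 for U5, 0.12 for U4/U6, 0.22 for activation, 0.15 for the helicases, 0.61 for 3′ splice site recognition and 0.01 for U1. No complex had a median below 0 in either genotype, but without G4/G5 CMP pool 1 the G4/G5 median was below 0 for 5 of the 11, U1 (-0.07), 3′ splice site recognition (-0.05), SF3B (-0.00), Lsm (-0.07) and U4/U6 (-0.18). Each complex holds 2 to 7 genes measured on the same arrays.

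**Figure D3:**
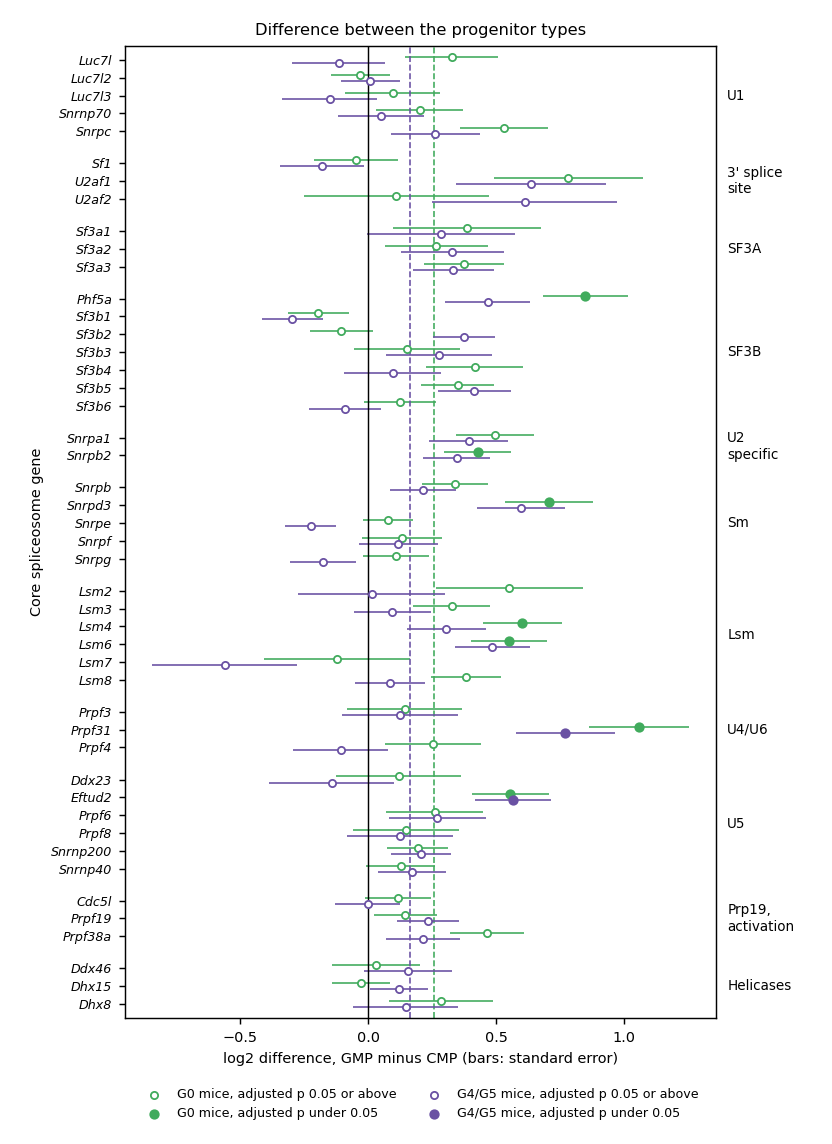
Log2 difference of GMP minus CMP (horizontal axis; bars are standard errors) for the 46 genes, grouped by complex, in G0 (green) and G4/G5 mice (purple); filled points have a limma adjusted p under 0.05 and dashed lines are the medians of the 46 genes, 0.26 and 0.16. The filled points are 7 genes in G0 and, in G4/G5, Prpf31 and Eftud2.

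Genes of cycling cells were also compared. Of 15 tested genes of a list of replication and mitosis genes, 12 lay above 0 in GMP against CMP in G0 (median 0.28, with 5 passing as higher, 33.3% against 10.6% of all genes tested) and 13 in G4/G5 (median 0.20, with 1 passing, 6.67% against 4.18%). The summed signal of that list was 26358 and 23858 on the GMP arrays of G0 mice against 22354 and 19896 on their CMP arrays, with 22148 and 19973 on the GMP arrays of G4/G5 mice against 17194 and 20685 on their CMP arrays. Both the list and the core spliceosome genes were thus highest in G0 GMP and lowest on G4/G5 CMP pool 1, and the part of cycling in the spliceosome values was not tested.

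**Figure D4:**
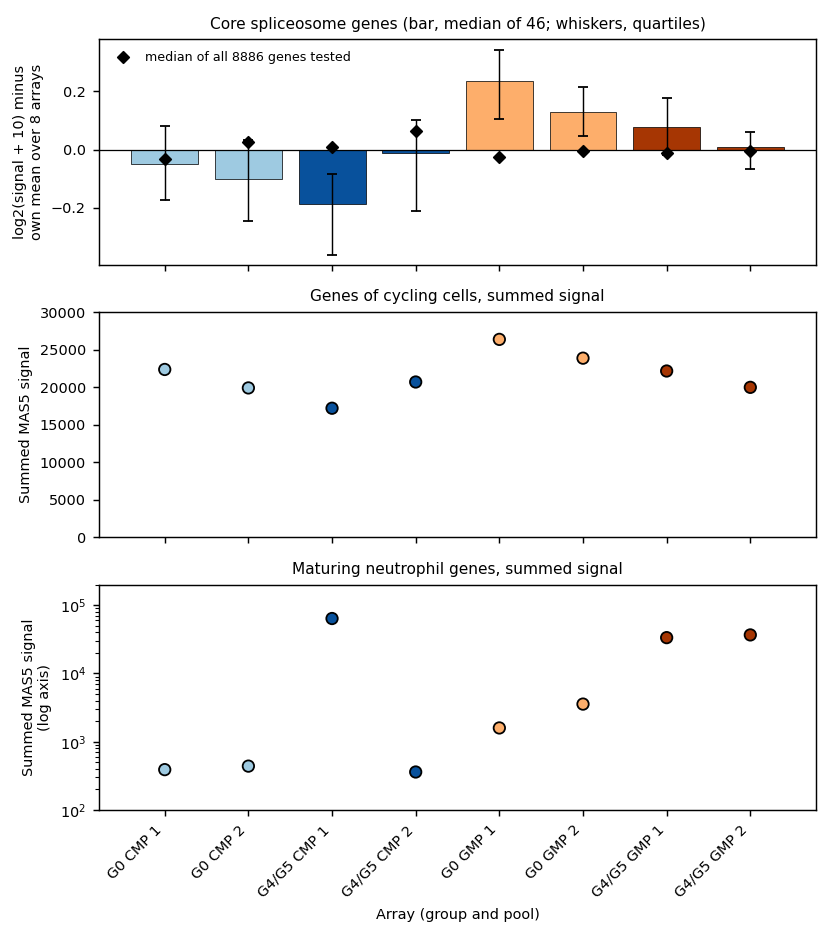
Panels over the 8 arrays (horizontal axis): the median of the 46 core spliceosome genes relative to each gene's own mean on the log2 scale, with quartiles as whiskers and diamonds for all 8886 genes tested; the summed MAS5 signal of the cycling list; and that of the maturing neutrophil list, on a log axis. Bars are medians, and core spliceosome medians run from -0.19 on G4/G5 CMP pool 1 to 0.24 on G0 GMP pool 1, and the neutrophil sum is 63743 on the former and 1591 on the latter.

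Telomere dysfunction, the question of the study, was compared within each cell type. In GMP, 37 of the 46 core spliceosome genes lay below 0 in G4/G5 against G0 and 9 above, with a median of -0.12 on the log2 scale, against 0.01 over all genes tested, but 0 passed. Nor did any of the 8886 genes pass in this comparison (0%), while 699 (7.87%) had an unadjusted p under 0.05, 1 of the 46 among them (Luc7l, 2.17%). Fitted on the 4 GMP arrays alone, 264 genes passed as higher and 96 as lower, still with 0 of the 46. Of all genes 23.3% then had an unadjusted p under 0.05, as did 10 of the 46 (21.7%), all 10 below 0. Both G4/G5 GMP pools lay below both G0 GMP pools for 22 of the 46 genes (47.8%, against 26.5% of all genes tested) and above them for 2 (4.35%, against 28.8%), Snrpb2 and Prpf6. Leaving out 1 GMP pool at a time, 14, 8, 8 and 10 genes lay above 0 (without G0 GMP pool 1 and 2, and G4/G5 GMP pool 1 and 2), and the median ran from -0.19 to -0.07. With quantile normalization it was -0.12 and with median centring -0.15. Among the 37 genes below 0 is Ddx23, which passed the signal filter only through its G0 GMP arrays. With a filter of 100, which leaves it out, 9 of 44 genes lay above 0. The 15 cycling genes all lay below 0 in this comparison (median -0.29, 0 passing) and the maturing neutrophil sum was higher in both G4/G5 GMP pools than in both G0 pools, as given above. The part of either in the lower core spliceosome values was not tested.

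In CMP the core spliceosome genes were evenly divided on their chosen probe sets, 23 above 0 and 23 below, with a median of 0.01, against 0.04 over all genes tested. The division depends on the probe set. Of 54 other probe sets, 39 lay below 0 and 15 above (median -0.10). With the mean of a gene's probe sets, 17 of the 46 genes lay above 0 (median -0.06, against 0.01 over all genes). Of the 46, 0 passed, while 1 of all genes tested did (0.0113%), and 5 of the 46 had an unadjusted p under 0.05 (10.9%, against 13.4% of all genes tested). The G4/G5 pools did not overlap the G0 pools from above for 4 genes (8.70%, against 21.7% of all genes tested), Snrpe, Snrpg, Lsm4 and Lsm8. They did so from below for 8 (17.4%, against 14.9%), Sf3b2, Sf3b5, Snrpf, Snrnp200, Prpf3, Prpf19, Eftud2 and Dhx15. With quantile normalization the median was -0.05, against -0.02 over all genes, and with median centring -0.04, against -0.01, so both moved alike. Without G4/G5 CMP pool 1, the array with the neutrophil signal, it was 0.05 with 0 genes passing. Without pool 2 it was -0.10, against 0.01 over all genes, with U2af2 at -1.48 and Sf3a1 at -0.79. G4/G5 CMP then stood on pool 1 alone, the array with the neutrophil signal.

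Averaged over CMP and GMP, 15 genes lay above 0 and 31 below (median -0.11, against 0.02 over all genes tested), and 0 passed, against 0.0338% of all genes. An unadjusted p under 0.05 was found for 3 (6.52%, against 17.8%). Without G4/G5 CMP pool 1, 18 lay above 0 (median -0.06). Dhx15, the helicase that takes spliceosomes apart, came nearest, at -0.23 ± 0.08 (adjusted p = 0.225). The test of whether the change with genotype differs between GMP and CMP passed for 0 of the 46 and for 0% of all genes tested, with 13 of the 46 above 0 and 33 below (median -0.11, against -0.03). In it Sf3b2 had the only unadjusted p under 0.05 of the 46 (2.17%, against 3.97% of all genes), at 0.48 ± 0.17 (adjusted p = 0.994).

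**Figure D5:**
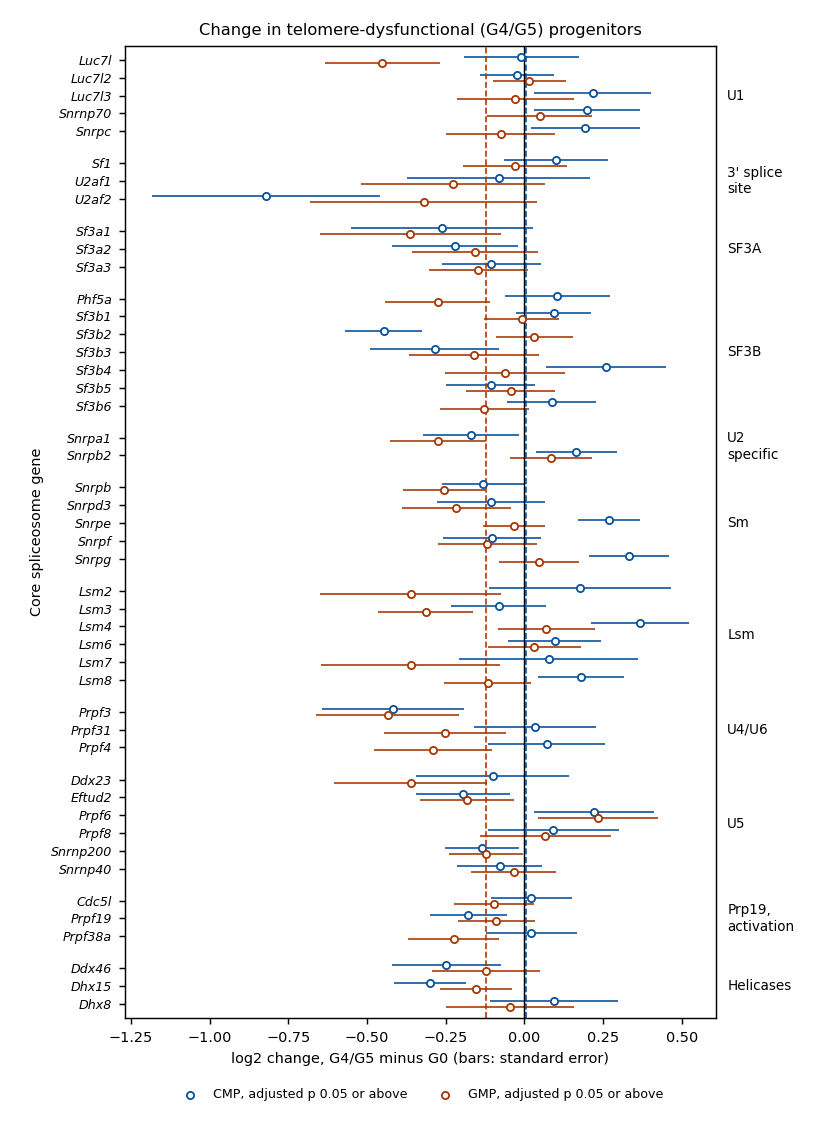
Log2 change of G4/G5 minus G0 (horizontal axis; bars are standard errors) for the 46 genes, grouped by complex, in CMP (blue) and GMP (brown); open points have a limma adjusted p of 0.05 or above, which holds for all of them, and dashed lines are the medians of the 46 genes, 0.01 in CMP and -0.12 in GMP. Points of GMP lie left of 0 for 37 genes, and the widest value is U2af2 in CMP, at -0.82.

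By complex, the genes of U1 lay on both sides of 0 with genotype. Snrpc and Snrnp70, which contact the 5′ splice site and U1 RNA, and Luc7l3 had values of 0.19, 0.20 and 0.22 in CMP and -0.08, 0.05 and -0.03 in GMP. Luc7l, a U1-associated factor like Luc7l2, read 274 and 209 in the CMP pools of G0 mice, 209 and 270.0 in those of G4/G5 mice, 318 and 288 in the GMP pools of G0 mice and 216 and 221 in those of G4/G5 mice. Its G4/G5 GMP pools lay below the G0 GMP pools and next to the lower CMP pools, by -0.45 ± 0.18, the widest value of the 46 in GMP, which did not pass (adjusted p = 0.613). On 2 other probe sets of Luc7l the same difference was -0.72 and -0.62 and on 1 more it was -0.05.

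Among the 3 genes that read the 3′ splice site, U2af1 and U2af2 had wide gaps between pools. U2af2 read 309 and 415 in the CMP pools of G0 mice, 122 and 319 in those of G4/G5 mice, 366 and 409 in the GMP pools of G0 mice and 328 and 289 in those of G4/G5 mice, so that the -0.82 ± 0.36 of CMP (adjusted p = 0.372) came from G4/G5 CMP pool 1, and it was -0.16 without that array. In GMP it was -0.32 ± 0.36 (adjusted p = 0.826), with both G4/G5 pools below both G0 pools. U2af1, which reads the AG at the intron's end, had 839 and 405 in the CMP pools of G0 mice, 569 and 533 in those of G4/G5 mice, 916 and 1115 in the GMP pools of G0 mice and 949 and 782 in those of G4/G5 mice. Its G0 CMP pools differed by 1.03 on the log2 scale, the largest gap between pools of that group, and its changes with genotype were -0.08 ± 0.29 in CMP and -0.23 ± 0.29 in GMP. Between cell types the GMP pools of U2af1 lay above the CMP pools in each genotype, with 0.78 ± 0.29 in G0 (adjusted p = 0.0901). Sf1, the branch point binding protein, read 4022 and 4851 in the CMP pools of G0 mice, 4069 and 5512 in those of G4/G5 mice, 4594 and 3968 in the GMP pools of G0 mice and 4116 and 4246 in those of G4/G5 mice, with the groups overlapping in all 4 comparisons and no change beyond -0.18.

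SF3A, which joins U2 together with SF3B, lay below 0 for all 3 genes in both cell types, except that in CMP all 3 lay above 0 once G4/G5 CMP pool 1 was left out (median 0.07). In CMP the values were -0.26 for Sf3a1, -0.22 for Sf3a2 and -0.11 for Sf3a3, and in GMP -0.36, -0.16 and -0.15; none passed. Sf3a1 read 299 and 298 in the CMP pools of G0 mice, 168 and 361 in those of G4/G5 mice, 405 and 380.4 in the GMP pools of G0 mice and 321 and 286 in those of G4/G5 mice. G4/G5 CMP pool 1 was its lowest array and pool 2 of the same group was above both G0 CMP pools, and without that array the CMP value was 0.27. In GMP both G4/G5 pools were below both G0 pools (-0.36 ± 0.29, adjusted p = 0.743).

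SF3B divided. Sf3b2, which contacts the RNA next to the branch site, read 1438 and 1279 in the CMP pools of G0 mice, 942 and 1045 in those of G4/G5 mice, 1227 and 1295 in the GMP pools of G0 mice and 1329 and 1249 in those of G4/G5 mice. Both G4/G5 CMP pools were the lowest of its 8 arrays, and its -0.45 ± 0.12 had the smallest adjusted p of the 46 in CMP, 0.263, which did not pass. Sf3b4 and Sf3b6, RNA-binding proteins of the complex, had 0.26 and 0.09 in CMP and -0.06 and -0.13 in GMP. The scaffold Sf3b3 had -0.29 (0.05 without G4/G5 CMP pool 1) and -0.16, Sf3b5 -0.11 and -0.04, and Phf5a 0.10 and -0.28. Sf3b1 lay at 0.09 ± 0.12 in CMP and -0.01 ± 0.12 in GMP, and its other probe sets at -0.44, -0.31 and 0.01 in CMP and -0.16, -0.05 and 0.02 in GMP. The U2-specific Snrpa1 had -0.17 and -0.27, and Snrpb2 0.17 and 0.08.

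In the Sm ring, Snrpe and Snrpg were the genes that lay higher in G4/G5 CMP. Snrpe read 5104 and 5657 in the CMP pools of G0 mice, 6528 and 6426 in those of G4/G5 mice, 5693 and 5642 in the GMP pools of G0 mice and 5614 and 5466 in those of G4/G5 mice, and Snrpg read 4919 and 5327 in the CMP pools of G0 mice, 5897 and 7056 in those of G4/G5 mice, 5985 and 5091 in the GMP pools of G0 mice and 5757 and 5648 in those of G4/G5 mice. Both G4/G5 CMP pools were above all other arrays for Snrpe and pool 2 was for Snrpg, with differences of 0.27 ± 0.10 (adjusted p = 0.321) and 0.33 ± 0.13 (adjusted p = 0.333) that did not pass. For Snrpe the difference was -0.03 with quantile normalization, so its direction depends on the scaling. Snrpb, Snrpd3 and Snrpf had -0.13, -0.11 and -0.10 in CMP and -0.26, -0.22 and -0.12 in GMP.

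The Lsm ring of U6 lay above 0 for 5 of 6 genes in CMP and below 0 for 4 of 6 in GMP, with 0 passing. Lsm4 had the highest value in CMP, 0.37 ± 0.16 (adjusted p = 0.364), with both G4/G5 pools above both G0 pools, but 0.16 without G4/G5 CMP pool 1, and 0.07 in GMP. Lsm2, Lsm3 and Lsm7 had -0.36, -0.31 and -0.36 in GMP, each with both G4/G5 pools below both G0 pools, and 0.18, -0.08 and 0.08 in CMP. Lsm8, which marks the nuclear form of the ring, had 0.18 and -0.12, and Lsm6 0.10 and 0.03. Lsm7 was the gene with the widest gap in G4/G5 CMP among the ring, at 276 and 563.

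The U4/U6 proteins lay below 0 for all 3 genes in GMP, each without overlap. Prpf3, which binds the U4/U6 duplex together with Prpf4, read 217 and 221 in the CMP pools of G0 mice, 129 and 202 in those of G4/G5 mice, 282 and 209 in the GMP pools of G0 mice and 166 and 189 in those of G4/G5 mice. The G4/G5 pools lay below the G0 pools in both cell types, by -0.42 ± 0.23 in CMP (adjusted p = 0.456) and -0.43 ± 0.23 in GMP (adjusted p = 0.644), with no call. Without G4/G5 CMP pool 1 the CMP value was -0.11. Prpf4 had 0.07 and -0.29, and Prpf31 0.03 and -0.25.

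U5 genes were mostly even. Prpf8, the scaffold of the catalytic centre, read 621 and 925 in the CMP pools of G0 mice, 704 and 929 in those of G4/G5 mice, 902 and 785 in the GMP pools of G0 mice and 908 and 857 in those of G4/G5 mice, with the groups overlapping in every comparison. Prpf6, which bridges U5 and U4/U6, read 165 and 207 in the CMP pools of G0 mice, 246 and 191 in those of G4/G5 mice, 249 and 199.9 in the GMP pools of G0 mice and 278 and 249.95 in those of G4/G5 mice. It had the highest value of the 46 in GMP, 0.23 ± 0.19 (adjusted p = 0.751), with both G4/G5 pools above both G0 pools, and 0.22 in CMP (0.05 without G4/G5 CMP pool 1). Snrnp200, the helicase that unwinds U4 from U6, lay below 0 without overlap in CMP (-0.13) and GMP (-0.12). Snrnp40 had -0.08 and -0.03, Eftud2 -0.19 and -0.18, and the helicase Ddx23, between 32.2 and 51.3 on the arrays, -0.10 and -0.36. Ddx23 passed the signal filter only through its G0 GMP arrays, which favoured a lower value in G4/G5 GMP.

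Genes of activation, remodelling and release were mixed. The 3 helicases had a median of -0.25 in CMP, the lowest of the 11 complexes, and -0.12 in GMP, and -0.10 in CMP without G4/G5 CMP pool 1. The ubiquitin ligase Prpf19 had -0.18 in CMP and -0.09 in GMP, its partner Cdc5l 0.02 and -0.10, and Prpf38a 0.02 and -0.22. Ddx46, a helicase of U2 engagement, had -0.25 (-0.03 without G4/G5 CMP pool 1) and -0.12, and Dhx8, which releases the spliced messenger RNA, 0.09 and -0.04. Dhx15 read 3239 and 2879 in the CMP pools of G0 mice, 2346 and 2618 in those of G4/G5 mice, 3078 and 2914 in the GMP pools of G0 mice and 2711 and 2675 in those of G4/G5 mice. The G4/G5 pools were below the G0 pools of the same cell type for Dhx15 throughout, by -0.30 ± 0.11 in CMP (adjusted p = 0.327) and -0.15 ± 0.11 in GMP (adjusted p = 0.729).

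Genes around the core machinery were counted in the same way. Of 78 listed genes of the second step, tri-snRNP, branch site, minor spliceosome, exon junction complex and snRNP assembly, 65 were tested. In G4/G5 against G0, 26 lay above 0 and 39 below in CMP (median -0.08) and 16 above and 49 below in GMP (median -0.12), with 0 passing in either. In GMP against CMP, 40 lay above 0 and 25 below in G0 (median 0.14), with 6 passing as higher (9.23%, against 10.6% of all genes tested) and 1 as lower (1.54%, against 10.2%), shares that do not exceed the background. The 6 were Smn1, the snRNP assembly factor (1.09), Ppil1 (0.79), Rbm8a and Alyref, proteins of the exon junction and of messenger RNA export (0.61 and 0.49), Bud31 (0.58) and Ctnnbl1 (0.45), and Uhmk1, a kinase of Sf1 and stathmin, was lower (-0.50). In G4/G5 mice 38 lay above 0 and 27 below (median 0.06), with 1.54% passing in each direction (against 4.18% and 6.29%), Ctnnbl1 higher (0.49) and Rbm5, a regulator of alternative splicing, lower (-0.54).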

How the data were processed

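Per the series text and the submitters' processing notes, the authors deposited microarray intensities that MAS5 scaled to a target signal of 100. Background settings and detection calls are not given in the sources used here, and array number limits the precision. The deposited values entered as log2(signal + 10) and were not normalized again. Of 45101 probe sets, 64 were controls, 34945 carried 1 gene symbol, 932 several and 9160 none; 34741 single-symbol probe sets matched the gene table and 0 symbols changed. A gene entered where a single-symbol probe set reached 50 on at least 2 arrays.

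limma 3.58.1 in R 4.3.3 fitted 1 mean per group over all 8 arrays, with an intensity trend and 4 residual degrees of freedom. Benjamini-Hochberg adjustment ran over the 8886 genes, and a gene passed at 0.05. There were 6 comparisons: the genotypes within CMP, within GMP, their mean and their difference, and the cell types within each genotype. Alternatives covered the pseudocount, the filter, the scaling, the probe set rule, the variance trend, blocks and each pool left out; fitting each probe set on its own was added after the data were seen. The fit was tested on simulated data. Figures used Python 3.11.15, pandas 2.3.3 and matplotlib 3.10.9.

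The series text pairs the pools by number across genotypes. Deviations of same-numbered pools correlated at 0.247 in CMP and 0.139 in GMP across genotypes, and at 0.217 in G0 and 0.0343 in G4/G5 across cell types, so a block on the pool number was fitted as an alternative. The sources do not say whether 1 group of mice gave both a CMP and a GMP pool, and the fit treats the arrays as independent.

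The 51 genes, the gene lists, the tests and the rule for named genes were chosen with earlier results of these data known. Values on all arrays are given for genes that passed, the 3 highest and 3 lowest values per genotype comparison and the genes mutated in myeloid neoplasms. Promoters come from RefSeq, and the array files name no build.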

Additional observations from a re-analysis of the deposited data

How the results depend on the processing

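Each comparison was refitted under 19 alternatives, as far as they could be fitted: the block within cell type could not be fitted for GMP against CMP, nor the arrays of the compared groups alone for the mean and the difference. Of the core spliceosome genes, 0 passed in any comparison of the genotypes under any of them, except without G4/G5 CMP pool 2. G4/G5 CMP was then pool 1 alone, and many other genes moved as well. The lowest values in the mean of CMP and GMP were then U2af2 -0.90, Sf3a1 -0.58 and Prpf3 -0.58. The median in CMP ran from -0.10 to 0.05 when 1 pool was left out.

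In GMP against CMP of G0, the 7 called higher became 3 with no signal filter, 2 with quantile normalization, 4 with the mean of a gene's probe sets, 4 without the intensity trend and 0 to 11 when 1 pool was left out. Called lower was 1 gene with quantile normalization, against 9.12% of all genes tested. With each probe set on its own, chosen after seeing the data, 2 genes were (2.0% of the probe sets, against 10.3% of all). The median of 0.26 became 0.14 with quantile normalization, 0.12 with the mean of probe sets and 0.19 to 0.36 when 1 pool was left out. With the replicate block shared by the cell types 9 passed.

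In G4/G5, the 2 called higher became 0 with no filter (against 0.989% of all genes tested) and with the mean of probe sets (against 2.59%). The count was also 0 without the trend (against 3.03%) and on the compared arrays alone (against 1.73%). It was 1 with quantile normalization (2.17%, against 3.96%) or without probe sets ending in _x_at or _s_at (2.27%, against 3.88%). With the shared replicate block 5 passed (10.9%, against 5.81%). Counts with 1 pool left out are again given above. The median became 0.08 with the mean of probe sets and 0.04 to 0.25 when 1 pool was left out. In the genotype comparisons the block within cell type changed no call of these genes.

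Direction was followed for the genes that passed and for the 3 highest and 3 lowest values per genotype comparison. Among these it turned for Snrpe in CMP (-0.03 with quantile normalization) and Snrpb2 in GMP (-0.09 with the mean of probe sets). It also turned for Lsm4 in GMP (-0.01 to 0.14 when 1 pool was left out). Other genes turned too, among them the 3 SF3A genes and Sf3b3 in CMP without G4/G5 CMP pool 1, as given above. Causes were not tested. With 2 pools a group, precision is limited.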

Other observations

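Some genes had probe sets that parted from the chosen one, and these values were picked after they were seen. Luc7l2 was flat on its chosen probe set, yet among its 8 probe sets past the filter 1 lay at -1.45 ± 0.36 in G4/G5 against G0 CMP (limma, adjusted p = 0.194 over 14743 probe sets) and at -0.75 in GMP, and another at -0.83 in GMP against CMP of G0 mice (adjusted p = 0.0143). A probe set of Ddx46 lay at -1.20 ± 0.26 in CMP (adjusted p = 0.166), where the chosen one gave -0.25. For Sf3b2, 1 further probe set gave -0.86 ± 0.17 in CMP (adjusted p = 0.164), in the direction of the chosen one. Luc7l had 1 at -0.77 in CMP (adjusted p = 0.207), where the chosen one gave -0.01. None of these differences between the genotypes passed. The place of each probe set on its gene was not analysed here.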
